A study of Homo sapiens with 13 samples.

Results

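The genes described here are those of MHC class II antigen presentation, chosen by annotated gene symbol. The rule used no measured value, but it was set with earlier results of these data known. The genes are the chains HLA-DRA, HLA-DPA1, HLA-DPB1, HLA-DQA1 and HLA-DQB1, the peptide-loading genes HLA-DMA, HLA-DMB and HLA-DOB, the invariant chain CD74 and the transactivator CIITA (older symbol MHC2TA). Of these 10 genes, 9 had a value on at least 1 array, out of 4580 named genes in the series, and they were carried by 54 of its 15246 features (spotted cDNA clones). HLA-DMA had no annotated feature, and the single HLA-DOB feature was measured on too few arrays to be tested, which left 8 tested genes and 35 tested features. The study hybridised RNA from 3 human myeloma cell lines, KMS12, H929 and SKMM1, to 13 Lymphochip arrays. On each array the line carrying a doxycycline-inducible hairpin against IRF4 was labelled with Cy5 and the same line carrying a control hairpin against luciferase (shluc) with Cy3, so a log2 ratio above 0 means that the IRF4 hairpin culture held more of that mRNA. Induced cultures of both kinds received doxycycline at 20 ng/ml. The KMS12 arrays belonged to 3 culture series, which the labels call 1332, 1332b and 2046, and fell into 3 arrays at days 2-3, 3 at days 4-5, 1 at day 7 (series 1332) and 3 uninduced arrays, while H929 had 2 arrays and SKMM1 had 1, all at day 4 with hairpin 2046. The first 2 induced time points were days 3 and 5 in series 1332 but days 2 and 4 in the other series, so day and series cannot be told apart inside a window. The control culture on an array shares its line and doxycycline exposure with the IRF4 hairpin culture, and nothing in the labels says whether an infected culture was a clone or a pool.

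MHC class II molecules are pairs of an alpha chain (HLA-DRA, HLA-DPA1, HLA-DQA1) and a beta chain (HLA-DPB1, HLA-DQB1, HLA-DRB1) that display peptides from endocytosed protein to CD4+ T cells. The invariant chain CD74 binds new pairs in the endoplasmic reticulum, keeps their groove closed and leads them to endosomes, where HLA-DM (HLA-DMA with HLA-DMB) exchanges its last fragment, CLIP, for peptide and HLA-DO (with HLA-DOB) restrains HLA-DM. CIITA binds no DNA by itself but assembles on RFX, CREB and NF-Y at the promoters of the HLA class II and CD74 genes and sets their level. B cells express the set, and normal plasma cells silence CIITA and with it much of the set through the repressor Blimp-1, encoded by PRDM1, which B cells need IRF4 to switch on as they become plasma cells.

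NF-Y reads the letters CCAAT, and these are shown in capitals, on whichever strand they lie (ATTGG is the opposite strand), in 110 bases of 4 of the promoters, given 5′ to 3′ in the direction of the gene from RefSeq sequence of GRCh38.p14. CD74 and HLA-DQA1 are shown because they are the 2 genes that passed a test in what follows, and HLA-DQB1 and HLA-DPB1 because their ratios followed those 2 most closely across the arrays. The stretches are chr5:150412921-150413030 (minus strand) for CD74, chr6:32637286-32637395 (plus strand) for HLA-DQA1, chr6:32666668-32666777 (minus strand) for HLA-DQB1 and chr6:33075870-33075979 (plus strand) for HLA-DPB1, each in the promoter region just before the annotated start.
CD74: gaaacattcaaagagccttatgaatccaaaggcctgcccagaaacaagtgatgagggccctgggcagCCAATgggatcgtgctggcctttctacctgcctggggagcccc
HLA-DQA1: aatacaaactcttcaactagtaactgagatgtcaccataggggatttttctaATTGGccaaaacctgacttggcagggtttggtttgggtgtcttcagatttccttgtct
HLA-DQB1: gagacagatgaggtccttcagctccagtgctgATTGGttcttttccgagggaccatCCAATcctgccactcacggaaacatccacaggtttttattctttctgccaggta
HLA-DPB1: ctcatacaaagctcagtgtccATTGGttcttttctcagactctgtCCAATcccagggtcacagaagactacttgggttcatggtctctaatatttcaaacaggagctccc
In these stretches a match begins 53 bases before the start of CD74, 68 before that of HLA-DQA1, 64 and 88 before that of HLA-DQB1 and 75 and 99 before that of HLA-DPB1. Over windows of 250 bases before to 50 bases after a start, CCAAT stood on either strand in 7 of the 9 windows of the 8 members that had one, against 34.6% of 35116 windows of all genes. The windows with a match belonged to CD74, HLA-DQA1, HLA-DQB1, HLA-DPB1, HLA-DMB, HLA-DMA and HLA-DOB, and both windows of HLA-DPA1 lacked it. GAAA followed after 2 bases by GAAA, a form of the sites that interferon regulatory factors bind, was in 0 of the 9 windows and in 3.57% of all windows, and GGAA followed after 2 bases by GAAA, a form of the composite site that IRF4 binds with an ETS factor, in 0 of 9 and in 2.82% (both strands searched; a base can belong to both). A match is a run of letters and no measured binding site.

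Each array gave a ratio for 7140 to 14228 features, and the medians over the tested features, -0.16 to 0.28, were subtracted array by array, so that every ratio is relative to the median feature. IRF4, the targeted gene, stood at 29.1%, 48.8% and 45.2% of control on the KMS12 arrays at days 2, 2 and 3 (series 1332b, 2046 and 1332), at 59.5% to 66.5% at days 4-5 and at 59.0% at day 7, against 109% to 118% on the uninduced arrays. In H929 it was at 25.7% and 28.9% of control and in SKMM1 at 24.6%. The transcript was thus below control on every induced array, and was closer to control at days 4-5 than at days 2-3 within each KMS12 series. The uninduced array of series 2046 stood apart: features measured on all 13 arrays had a median deposited ratio of 0.46 there and features measured on 9 arrays or fewer one of -0.41, and its correlation with the SKMM1 array over all features was -0.33. The 2 H929 arrays correlated at 0.62 over the features they share. The arrays are not said to come from separate infections, so a p-value reflects array-to-array spread that may be technical, and in RNA from whole cultures fewer cells of a type and less RNA per cell cannot be told apart.

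Early in induction the class II genes of KMS12 stood above control. At days 2-3 the invariant chain CD74 was 1.53-fold above control (log2 ratio 0.61 ± 0.15, SE; 3 arrays; limma adjusted p = 0.0239) and HLA-DQA1 1.44-fold (0.52 ± 0.16; adjusted p = 0.0408), and these 2 of 8 members passed the test against 0. Of all 4728 genes and unnamed features 19.1% passed in either direction, 275 above 0 and 629 below. All 8 members averaged above 0 (50.4% of all genes did) and were above 0 on each of the 3 arrays, a pattern shown by 28.3% of the genes with all 9 KMS12 values. The members' median ratio was 0.40, and that of all genes was 0.00. Both calls rest on few arrays: without the series 1332 array the adjusted p was 0.132 for CD74 and 0.208 for HLA-DQA1, without the series 1332b array 0.134 and 0.192, and on uncentred ratios 0.0569 and 0.117.

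**Figure D1:**
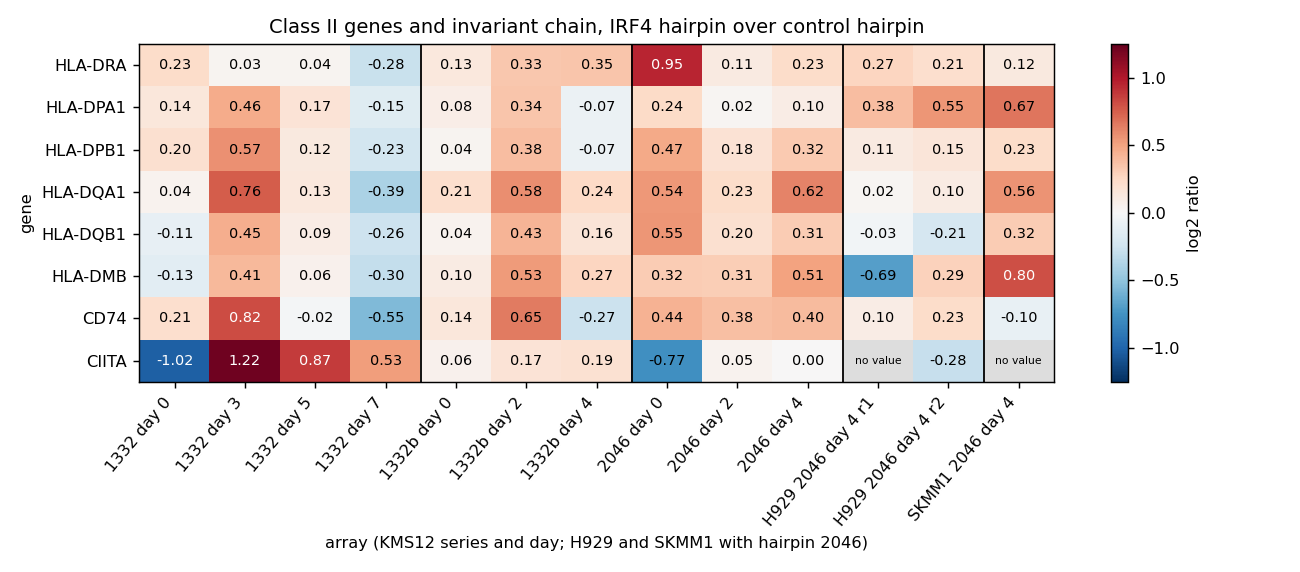
Log2 ratio (IRF4 hairpin over control hairpin, centred on each array) of the 8 tested class II genes, 1 row per gene and 1 column per array, with KMS12 series and day, then H929 and SKMM1; red is above control and blue below, and in a grey cell no tested feature had a value. At days 2 and 3 of KMS12 the cells are all above 0, and on the day 7 array 7 of 8 are below 0.

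The same days set against the uninduced arrays gave no call. Of the 8 members, 0 passed limma's test at an adjusted p under 0.05, and 0% of all genes did (1222 genes, or 25.8%, had an unadjusted p under 0.05). The members' differences had a median of 0.23, against 0.05 over all genes, and 7 of 8 were above 0, as were 53.8% of all genes. On the uninduced arrays themselves 7 of 8 members averaged above 0 as well (45.9% of all genes did).

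CD74, the invariant chain, had log2 ratios of 0.21, 0.82, -0.02 and -0.55 at days 0, 3, 5 and 7 of series 1332. Series 1332b gave 0.14, 0.65 and -0.27 at days 0, 2 and 4. In series 2046 the ratios were 0.44, 0.38 and 0.40 at the same days. CD74 was thus highest at the first induced day and below control at the last day in series 1332 and 1332b, and nearly level in series 2046, where the uninduced culture already stood as high as the induced ones. The mean was 0.61 ± 0.22 at days 2-3, against 0.27 ± 0.15 uninduced (SD, n = 3 each), a difference of 0.35 ± 0.22 (SE; limma adjusted p = 0.322), and the days 2-3 and uninduced arrays overlapped.

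HLA-DQA1, an alpha chain, gave 0.04, 0.76, 0.13 and -0.39 at days 0, 3, 5 and 7 of series 1332. At days 0, 2 and 4 it stood at 0.21, 0.58 and 0.24 in series 1332b and at 0.54, 0.23 and 0.62 in series 2046. The first induced day was thus the highest of series 1332 and 1332b and the lowest of series 2046. HLA-DQB1, its beta chain partner, had -0.11, 0.45, 0.09 and -0.26 in series 1332. Its ratios at days 0, 2 and 4 were 0.04, 0.43 and 0.16 in series 1332b and 0.55, 0.20 and 0.31 in series 2046. The order of the days was the same as for HLA-DQA1 except that in series 2046 the uninduced array of HLA-DQB1 was the highest. Against the uninduced arrays the differences at days 2-3 were 0.26 ± 0.22 for HLA-DQA1 and 0.20 ± 0.21 for HLA-DQB1 (SE; limma adjusted p = 0.476 and 0.565).

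HLA-DPB1, the beta chain of HLA-DP, stood at 0.20, 0.57, 0.12 and -0.23 at days 0, 3, 5 and 7 of series 1332. At days 0, 2 and 4 it had 0.04, 0.38 and -0.07 in series 1332b, against 0.47, 0.18 and 0.32 in series 2046. HLA-DPA1, its alpha chain partner, had 0.14, 0.46, 0.17 and -0.15 in series 1332, 0.08, 0.34 and -0.07 in series 1332b and 0.24, 0.02 and 0.10 in series 2046. Both partners were therefore highest at the first induced day of series 1332 and 1332b and lowest at that day in series 2046. HLA-DMB, the beta chain of the peptide exchanger HLA-DM, had -0.13, 0.41, 0.06 and -0.30 in series 1332. In series 1332b it had 0.10, 0.53 and 0.27, and in series 2046 0.32, 0.31 and 0.51. HLA-DMB averaged 0.42 ± 0.11 at days 2-3, against 0.10 ± 0.22 uninduced (SD, n = 3 each; difference 0.32 ± 0.26, SE; limma adjusted p = 0.442), and its groups overlapped through the series 2046 arrays alone, as the lowest array at days 2-3 (0.31) was just under that series' uninduced array (0.32).

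HLA-DRA, the alpha chain of HLA-DR, took another course. Its ratios were 0.23, 0.03, 0.04 and -0.28 at days 0, 3, 5 and 7 of series 1332, and 0.13, 0.33 and 0.35 at days 0, 2 and 4 of series 1332b. In series 2046 the uninduced array was at 0.95, the highest value of the 6 tested HLA members and CD74 on any array, and days 2 and 4 at 0.11 and 0.23. HLA-DRA was the one member whose difference at days 2-3 was below 0 (-0.28 ± 0.23, SE; limma adjusted p = 0.466), and without the series 2046 uninduced array that difference was -0.02. HLA-DRB1, the usual beta chain partner of HLA-DRA and not among the 10 genes, had 1.02, 0.58 and 0.44 at days 2-3 (series 1332, 1332b and 2046), against 0.26, 0.26 and 0.44 uninduced. At days 2-3 HLA-DRB1 was above 0 by limma's test (0.68 ± 0.15, SE; adjusted p = 0.0195). Against the uninduced arrays, the comparison given for HLA-DRA, HLA-DRB1 differed by 0.36 ± 0.21 (SE; limma adjusted p = 0.303). Whether HLA-DRA and HLA-DRB1 differed was not tested, and related HLA genes are similar enough in sequence that a cDNA clone of one may take up label from another, which was not tested.

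**Figure D2:**
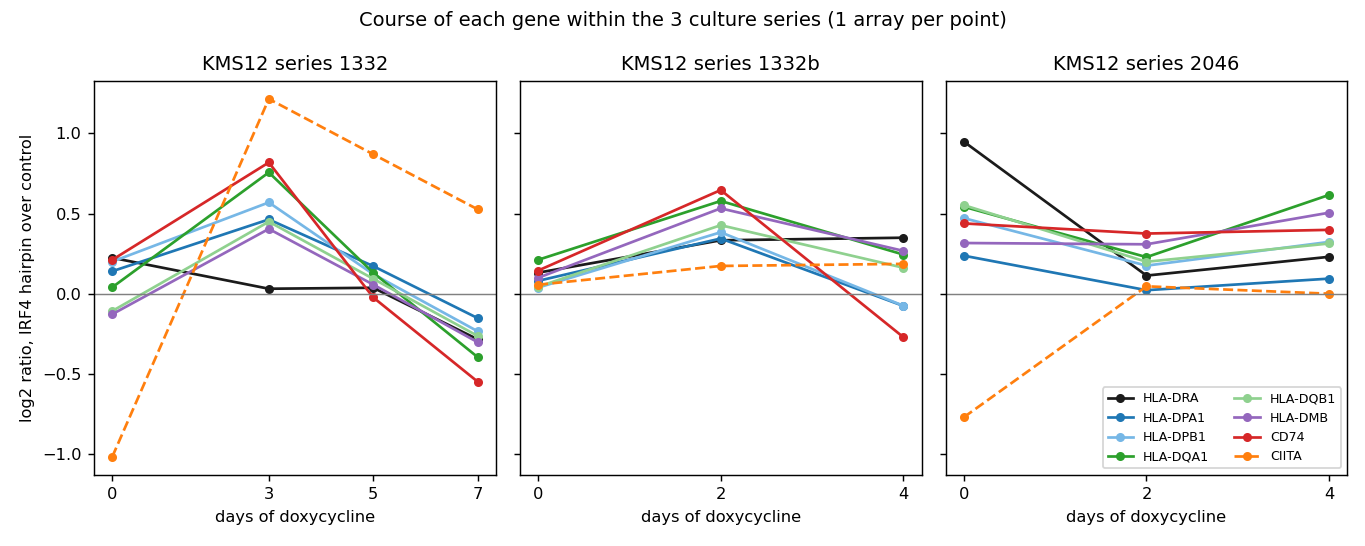
Log2 ratio (IRF4 hairpin over control) of each tested gene by days of doxycycline in the 3 KMS12 culture series, 1 array per point and no error bars. In series 1332 and 1332b the HLA genes other than HLA-DRA, and CD74, peak at day 3 or day 2, in series 2046 they do not, and CIITA (dashed) starts below 0 in series 1332 and 2046.

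CIITA, the transactivator of the whole set, had the largest differences of the members and the least even ones. It stood at -1.02, 1.22, 0.87 and 0.53 at days 0, 3, 5 and 7 of series 1332. Series 1332b gave 0.06, 0.17 and 0.19 at days 0, 2 and 4, and series 2046 gave -0.77, 0.05 and 0.00. CIITA was thus higher on the induced than on the uninduced array of each series, by 2.23, 0.12 and 0.82 at days 2-3, but the groups overlapped because series 1332b began above 0 and series 2046 stayed near 0. The fitted differences were 1.05 ± 0.38 at days 2-3 and 0.93 ± 0.38 at days 4-5 (SE; limma adjusted p = 0.125 and 0.809), with 95% intervals of 0.21 to 1.90 and 0.08 to 1.78. Against 0, CIITA averaged 0.48 at days 2-3 and -0.58 on the uninduced arrays, and neither passed (adjusted p = 0.222 and 0.606). Its 2 tested features were measured on 10 and 11 arrays, and the 2027 tested features of that kind moved the same way on a smaller scale, with array medians of -0.04 to 0.13 on the induced KMS12 arrays, against -0.31 to -0.03 on the uninduced ones. Centring such sparse features separately left differences of 0.90 and 0.74 (adjusted p = 0.145 and 0.890). Its 9 untested features, of which an array measured 1 to 9, averaged 0.20 to 0.84 on the 7 induced KMS12 arrays, against -1.74 to -0.48 on the 3 uninduced arrays, and 23.8% of the 4004 genes and unnamed features outside the filter likewise had every induced array above every uninduced one.

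By days 4-5 the HLA genes and CD74 lay near their uninduced level. Against the uninduced arrays 4 of the 8 differences were above 0 and 4 below, with a median of -0.03 (0.02 over all genes), and 0 members passed limma's test where 0% of all genes did (282 genes, or 5.96%, had an unadjusted p under 0.05). The HLA genes and CD74 lay between -0.23 (CD74, SE 0.22, adjusted p = 0.888; and HLA-DRA, SE 0.23, adjusted p = 0.894) and 0.18 (HLA-DMB, SE 0.26, adjusted p = 0.917). With 3 arrays a group, the 95% interval was -0.71 to 0.25 for CD74 and -0.74 to 0.28 for HLA-DRA. Changes within these bounds thus remain possible. The bounds are no limit of detection, as IRF4 at -0.83 also missed the adjusted threshold (limma adjusted p = 0.758). Against 0, all 8 members averaged above 0 (50.4% of all genes did) with a median of 0.20, 5 of them being above 0 on all 3 arrays (14.3% of genes), and 0 passed the adjusted threshold, as did 0.0846% of all genes. HLA-DQA1, at 0.33 ± 0.16 (SE), came nearest (adjusted p = 0.561).

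**Figure D3:**
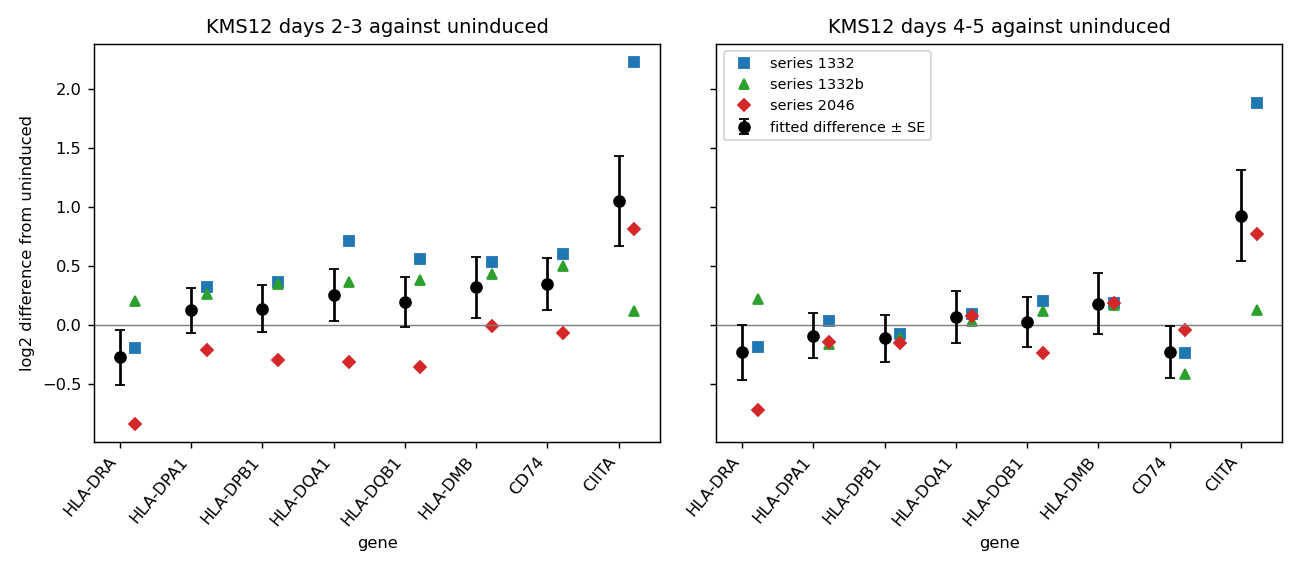
Log2 difference from the uninduced arrays for each tested gene at days 2-3 (left) and days 4-5 (right); black points are the fitted differences with their standard errors over 3 arrays a group, and coloured points the difference within each culture series. At days 2-3 the series 2046 points lie below 0 for 7 of 8 genes, and at days 4-5 those of the HLA genes and CD74 lie between -0.42 and 0.22 apart from HLA-DRA in series 2046 (-0.72).

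No member separated the groups. On the 9 KMS12 arrays with 3 in each group, 0 of 8 members had all days 2-3 arrays above all uninduced arrays (13.2% of genes did) and 0 had them all below (19.8%). At days 4-5 the counts were again 0 above (4.81% of genes) and 0 below (6.14%). Within a series, though, most members had the same direction. From day 0 to day 3 of series 1332, 7 of 8 were higher (51.8% of genes were), and from day 0 to day 2 of series 1332b, 8 of 8 (52.2%), with 6 of 8 lower again at day 4 (50.3%). In series 2046 7 of 8 were lower at day 2 than at day 0 (52.3% of genes) and 7 of 8 higher at day 4 than at day 2 (54.2%). The median difference of the members from the uninduced array of their own series was 0.54, 0.36 and -0.26 at days 2-3 in series 1332, 1332b and 2046, and 0.06, 0.08 and -0.09 at days 4-5. The sign of the early difference thus differed between the series, and leaving out the series 2046 uninduced array took the members' median at days 2-3 to 0.39.

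Series 1332 alone was followed to day 7. There 7 of 8 members were lower at day 5 than at day 3 and lower again at day 7, as 24.2% of genes were, and HLA-DRA, level at days 3 and 5, was the exception. At day 7 the feature means of the 6 HLA genes and CD74 lay at -0.15 to -0.55 (49.3% of genes were below 0 on that array). These means were all below control, CD74 being the lowest at -0.55, and CIITA was at 0.53. Single tested features reached 0.705 for HLA-DPA1, 0.195 for HLA-DQA1, 0.112 for HLA-DQB1 and 0.107 for HLA-DMB. Every tested feature of HLA-DRA, HLA-DPB1 and CD74 was below 0. The untested HLA and CD74 features measured there were at 1.26 (HLA-DQA1), 1.01 (HLA-DOB), 0.29 (CD74) and -0.10 (HLA-DRA). The day 7 condition has a single array, so these values have no replicate and no test.

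Before doxycycline the members already tended to lie above 0. On the uninduced arrays 7 of 8 averaged above 0, the members' median was 0.20 (-0.03 over all genes), and 5 of 8, namely CD74, HLA-DPA1, HLA-DPB1, HLA-DQA1 and HLA-DRA, were above 0 on all 3 arrays, as 18.3% of genes were. None passed the adjusted threshold, where 0% of all genes did (379 genes, or 8.02%, had an unadjusted p under 0.05). HLA-DRA averaged 0.44 ± 0.45 (SD, n = 3; limma adjusted p = 0.602), a spread made by the series 2046 array. The members' medians on the uninduced arrays were 0.09, 0.09 and 0.46 in series 1332, 1332b and 2046, so the last of these stood apart for this set as it did for the array as a whole. HLA-DRA and HLA-DQB1 had their highest KMS12 value there, as 20.6% of genes did. No array swapped the dyes, so a dye effect particular to a gene stays in every ratio set against 0 and cancels where induced and uninduced arrays are subtracted.

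Single clones showed whether a gene's ratio was shared by its features. All 9 tested CD74 features were above 0 at days 2-3 (0.50 to 0.69), and 6 of them passed the test when every feature was fitted by itself. Against the uninduced arrays the 9 CD74 features differed by 0.21 to 0.54 at days 2-3 and by -0.51 to -0.06 at days 4-5, the sign being shared by all 9 in both windows. The 4 HLA-DRA features were below 0 at days 2-3 against uninduced (-0.52 to -0.09). The 5 features of HLA-DQA1, the 4 of HLA-DQB1 and the 5 of HLA-DMB were all above 0 in that comparison, those of HLA-DQA1 at 0.20 to 0.32, while HLA-DPA1 had 3 of 4 and HLA-DPB1 1 of 2 above 0. Features of a gene share its RNA and its array, so their common sign speaks to the spots and not to the spread between cultures. Within an array, the highest and lowest features of a gene lay a median of 0.87 apart in H929, 0.79 in SKMM1 and 0.42 in KMS12.

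**Figure D4:**
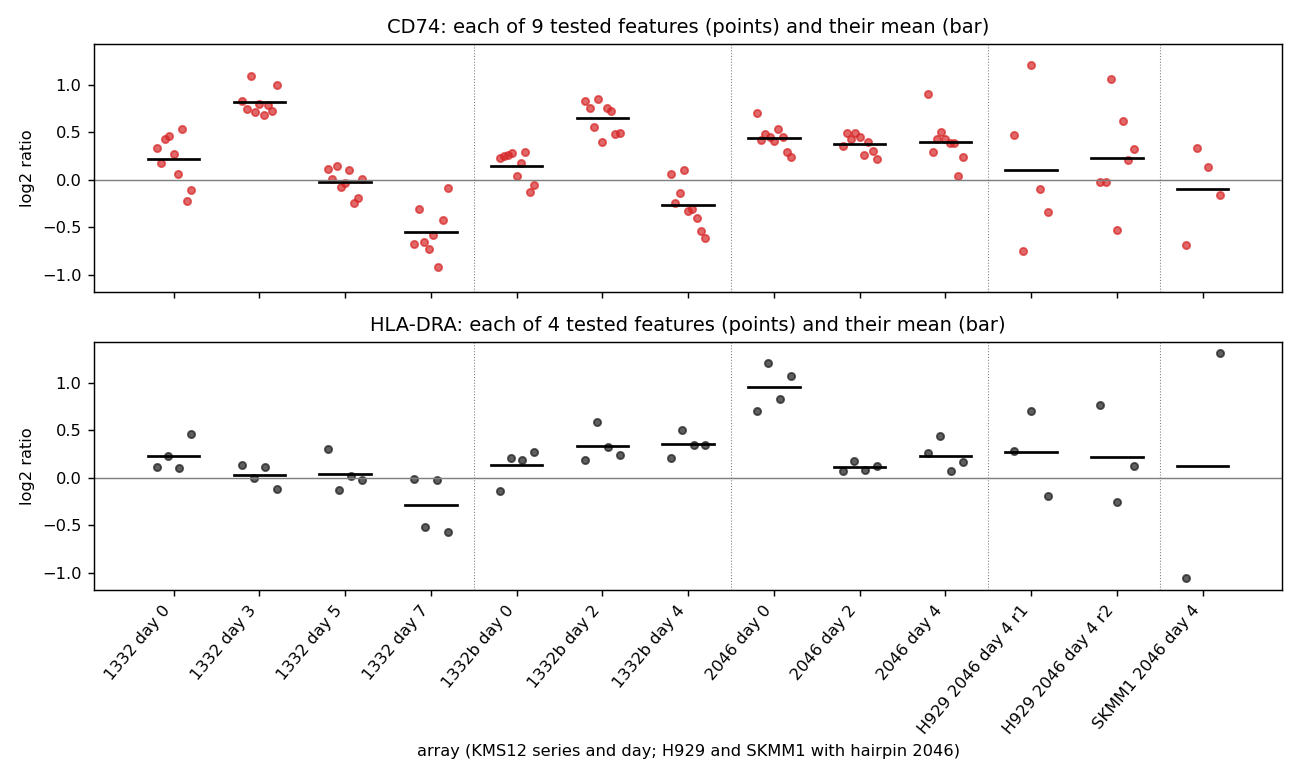
Log2 ratio (IRF4 hairpin over control) of each tested feature (points) of CD74 (top) and HLA-DRA (bottom) on each array, with the mean of the features as a bar. The CD74 features lie together on the KMS12 arrays, above 0 at days 2 and 3, and scatter more widely in H929.

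Across the 13 arrays the HLA genes and CD74 varied together to different degrees. Pearson's r over the 21 pairs of the 7 genes measured on every array ran from 0.16 (HLA-DPA1 with HLA-DRA) to 0.91 (HLA-DQA1 with HLA-DQB1, and CD74 with HLA-DPB1), with a median of 0.51. With CIITA, whose tested features had values on 11 arrays, the 7 correlations ran from -0.60 (HLA-DRA) to 0.11 (HLA-DQA1 and HLA-DQB1). The points share arrays, lines and culture series, and the values are a description. The mean profile of the 7 genes was most like those of EEF1D, a subunit of translation elongation factor eEF1 (r = 0.88), IGLL1, a surrogate light chain gene (0.87), CYP2A6, a liver cytochrome P450 (0.87), NUDCD3, a co-chaperone (0.86) and ICAM3, a leukocyte adhesion molecule (0.86), out of 1696 named genes measured on all 13 arrays. IRF4 itself correlated with that mean profile at -0.16.

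In H929 the members had mixed signs. At day 4 HLA-DPA1 had 0.38 and 0.55 on the 2 arrays (repeats 1 and 2), HLA-DRA 0.27 and 0.21, HLA-DPB1 0.11 and 0.15 and CD74 0.10 and 0.23. HLA-DQA1 had 0.02 and 0.10, HLA-DQB1 -0.03 and -0.21, and the tested CIITA features gave only -0.28, on repeat 2. The untested CIITA features, 4 on each array, averaged 0.31 and 0.28 (from -0.91 to 0.97 on repeat 1 and from -1.003 to 1.035 on repeat 2), the opposite sign to the tested value. HLA-DMB gave -0.69 on repeat 1, from 2 features, and 0.29 on repeat 2, from 4 features. Its arrays thus had opposite signs, over unequal sets of features. The CD74 features ran from -0.756 to 1.21 on repeat 1 and from -0.535 to 1.063 on repeat 2. Of the 8 members 5 averaged above 0 (51.1% of all genes did), the median was 0.10 (0.01 over all genes), and 0 passed limma's test where 4.21% of 4607 genes did. HLA-DPA1 came nearest, at 0.47 ± 0.16 (SE; adjusted p = 0.108), with 3 of 3 measured features above 0. CIITA and any gene measured on 1 array were fitted with the spread of the other groups.

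Set against KMS12 at days 4-5, H929 at day 4 showed no member past the threshold (0 of 8, and 0.0434% of all genes), and 4 of 8 were higher in H929 (49.6% of all genes). The differences ran from -0.64 ± 0.54 (SE) for CIITA, with 1 H929 array, and -0.48 ± 0.29 for HLA-DMB to 0.40 ± 0.21 for HLA-DPA1 (limma adjusted p = 0.569, 0.407 and 0.349). For CD74 the difference was 0.13, with a 95% interval of -0.41 to 0.66, and a missed threshold does not show that the lines respond alike. IRF4 itself was lower relative to control in H929 than in KMS12 at these days, by -1.22 ± 0.24 (SE; adjusted p = 0.0706).

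SKMM1, with 1 array, had HLA-DMB at 0.80, HLA-DPA1 at 0.67, HLA-DQA1 at 0.56, HLA-DQB1 at 0.32, HLA-DPB1 at 0.23, HLA-DRA at 0.12 and CD74 at -0.10. The tested CIITA features had no value there, and the 1 untested CIITA feature that did was at 0.33. Its 2 HLA-DRA features lay at -1.06 and 1.31, so their mean describes neither. For hairpin 2046 at day 4 in the 3 lines, all 7 genes with a tested value averaged above 0 (49.4% of genes did), with a median of 0.23. None passed limma's test over the 3 lines, nor did any other gene (0%; 774 genes, or 19.2%, had an unadjusted p under 0.05). HLA-DQA1 averaged 0.41, from 0.06 in H929, 0.56 in SKMM1 and 0.62 in KMS12, and HLA-DPA1 also averaged 0.41, from 0.47, 0.67 and 0.10 (adjusted p = 0.272 and 0.270). The same mean thus came from different lines in these 2 genes.

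**Figure D5:**
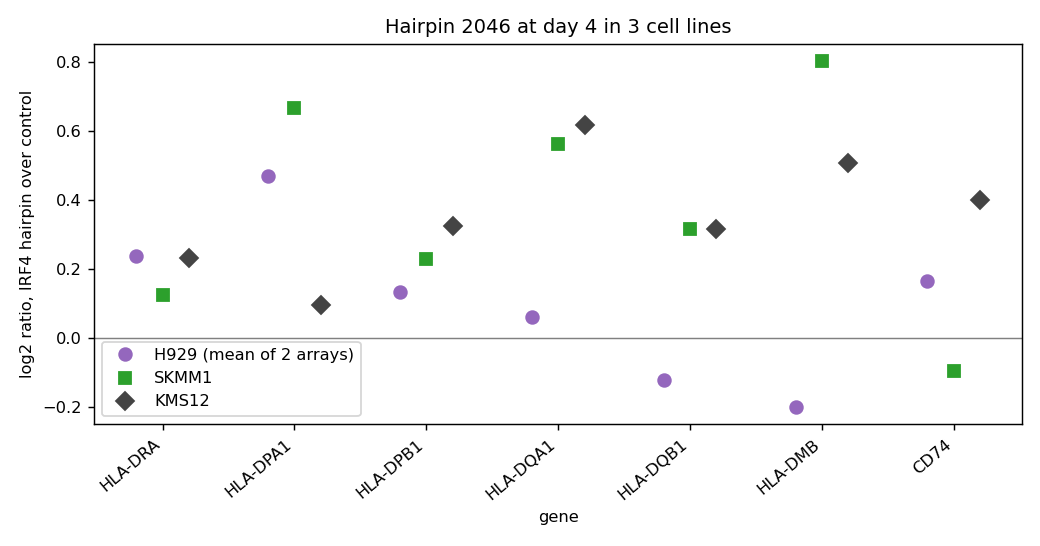
Log2 ratio (IRF4 hairpin over control) at day 4 of hairpin 2046 in H929 (mean of 2 arrays), SKMM1 (1 array) and KMS12 (1 array) for the 7 genes with tested values in all 3 lines. HLA-DPA1 is lowest in KMS12, HLA-DPB1, HLA-DQA1, HLA-DQB1 and HLA-DMB are lowest in H929, and HLA-DRA and CD74 are lowest in SKMM1.

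Genes upstream of the class II set were listed and read from the same fit. Of 11 measured genes of the class II transactivation machinery (RFX and NF-Y subunits and chromatin cofactors), 0 passed against the uninduced arrays in either window, where 0% of all genes did. The medians of these 11 genes were 0.00 at days 2-3 and -0.02 at days 4-5. The 3 with the smallest p at days 4-5 were KAT2B, an acetyltransferase (0.78 ± 0.50, SE), HDAC2, a deacetylase (-0.42 ± 0.39), and RFXAP, a subunit of RFX (0.32 ± 0.35). At days 2-3 the same comparison gave 1.42 ± 0.50 for KAT2B, -1.53 ± 0.39 for HDAC2 and -0.55 ± 0.35 for RFXAP (SE; limma adjusted p = 0.129, 0.0765 and 0.327), so the estimates for KAT2B and HDAC2 were further from 0 than at days 4-5 and that for RFXAP had the opposite sign. At days 2-3 against 0, HDAC2 at -1.20 ± 0.27 and RFXAP at -1.02 ± 0.27 were below 0 (SE; limma adjusted p = 0.0196 and 0.0316), the 2 of the 11 that passed there, where 19.1% of all genes did. Among 7 measured genes of the interferon route that can switch on CIITA, 0 passed against uninduced, where 0% of all genes did. At days 2-3 against 0, 1 of the 7 passed above 0 and 1 below 0, where 19.1% of all genes passed. The gene above 0 was IFNG, encoding interferon gamma, at 0.82 ± 0.20 (SE; limma adjusted p = 0.0268). Against uninduced, IFNG differed by 1.24 ± 0.28 at days 2-3 and 0.87 ± 0.26 at days 4-5 (SE; limma adjusted p = 0.0764 and 0.758). SOCS1, a feedback inhibitor, was at -0.27 ± 0.20 and the transcription factor USF1 at 0.48 ± 0.41 at days 4-5. KAT2B, RFXAP, IFNG and USF1 had no value on some of the KMS12 arrays compared, so their estimates rest on fewer arrays. The part of the shift of sparse features, described for CIITA, in these values was not tested.

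Regulators that separate B cells from plasma cells also gave no call against uninduced. Of 10 measured, 0 passed in either window, where 0% of all genes did. PRDM1, which encodes the repressor of CIITA, differed by -0.59 ± 0.25 at days 2-3 and -0.44 ± 0.25 at days 4-5 (SE; limma adjusted p = 0.162 and 0.810), and BCL6, a germinal centre repressor, by 0.51 ± 0.25 and 0.45 ± 0.25 (adjusted p = 0.213 and 0.810). IRF4 differed by -1.50 ± 0.21 and -0.83 ± 0.21 (adjusted p = 0.0764 and 0.758), the targeted transcript itself thus missing the adjusted threshold in both comparisons. At days 2-3 against 0, 1 of the 10 passed, where 19.1% of all genes did. That gene was IRF4, at -1.32 ± 0.15 (SE; limma adjusted p = 0.00662). In H929 against 0, 2 of the 10 passed below 0, where 4.21% of all genes passed. IRF4 was among them, at -1.88 ± 0.19 (SE; limma adjusted p = 0.00209).

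Downstream of the class II chains, 8 measured genes of endosomal processing gave 0 calls against uninduced, where 0% of all genes were called. Their medians were -0.08 at days 2-3 and -0.23 at days 4-5. The 3 with the smallest p at days 4-5 were proteases: CTSC (cathepsin C) at -0.55 ± 0.23, CTSS (cathepsin S, which trims the invariant chain) at -0.37 ± 0.19 and LGMN (legumain) at -0.43 ± 0.25 (SE; limma adjusted p = 0.810 for each). At days 2-3 against 0, 1 of the 8 passed above 0 and 2 below 0, where 19.1% of all genes passed, CTSC being below at -0.63 ± 0.16 (SE; limma adjusted p = 0.0268). Against uninduced at days 2-3 CTSC differed by -0.79 ± 0.23, CTSS by -0.49 ± 0.19 and LGMN by -0.16 ± 0.25 (SE; adjusted p = 0.0819, 0.145 and 0.709). Of 13 measured genes of the class I route, 0 passed in either window against uninduced (0% of all genes did), with medians of 0.02 and -0.02. HLA-G (-0.45 ± 0.27), NLRC5, the transactivator of class I (0.51 ± 0.34), and the peptide transporter subunit TAP1 (-0.36 ± 0.25) had the smallest p of that list at days 4-5 (SE; adjusted p = 0.810, 0.833 and 0.833). At days 2-3 these 3 differed by 0.17, -0.01 and -0.14.

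Markers of cell types were read from the same fit, and none passed the adjusted threshold against uninduced, where 0% of all genes did. Of 9 measured B cell markers 8 were above 0 at days 2-3 against uninduced, where 53.8% of all genes were, with a median of 0.43 and array medians of 0.11 to 0.35 at days 2-3 and -0.24 to -0.06 uninduced. All 6 T cell markers were above 0 (median 0.34, array medians -0.14 to 0.35 at days 2-3 and -0.26 to -0.01 uninduced), as were 4 of 4 erythroid and stromal markers (median 0.50, array medians 0.21 to 0.44 and -0.45 to 0.08) and 2 of 3 myeloid markers (median 0.36, array medians 0.02 to 0.37 and -0.26 to 0.10). Of 10 plasma cell markers 2 were above 0 (median -0.64, array medians -0.83 to -0.30 at days 2-3 and -0.01 to 0.18 uninduced), with TNFRSF17, the receptor BCMA, at -0.78 ± 0.23 (SE; limma adjusted p = 0.0857) and ELL2, an elongation factor of antibody secretion, at -0.90 ± 0.32 (adjusted p = 0.115). By the same comparison at days 2-3, the B cell genes CD37, CD24 and CR2 differed by 1.06, 0.69 and 0.06, the T cell genes ZAP70, LAT and CD8A by 0.51, 0.30 and 0.15, the myeloid genes CD68, ITGAX and ITGAM by 0.39, 0.36 and -0.35, and FN1, HBA1 and PECAM1 of the last list by 0.53, 0.47 and 1.06. At days 2-3 against 0, 4 of the 10 plasma cell markers passed below 0, where 19.1% of all genes passed in either direction. IRF4, the targeted gene, is itself on the plasma cell list. It is among those that passed (-1.32 ± 0.15, SE; limma adjusted p = 0.00662). The counts and medians of that list thus partly hold the knockdown itself. Of the 9 B cell markers 1 passed above 0 and 1 below, and of the 4 erythroid and stromal markers 1 passed above. No T cell or myeloid marker passed there. CD24 and PECAM1 had no value on some of the KMS12 arrays compared, so their estimates rest on fewer arrays. The part of the shift of sparse features, described for CIITA, in the marker values was not tested. A ratio does not show whether a marker was at 0 in both cultures. Their part in the class II values was not tested.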

How the data were processed

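The authors deposited 1 table of log ratios, 15246 features by 13 arrays, taken here as log2 (its base, the normalization, the background correction and the blanking rule: not given in the sources used here; values run from -9.78 to 7.51). Direction follows the dyes, per the labels. Without intensities no brightness-dependent dye bias was fitted; the number of arrays limits the precision. Of the features, 10169 had 1 gene symbol, 4 several and 5073 none; 10128 symbols were updated by gene identifier to a RefSeq gene table and 41 kept as given.

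Features measured on at least 10 of 13 arrays and at least 2 of 3 per KMS12 window (6879) were centred on the array median and averaged per gene (2833 genes, 1895 unnamed features). Fits used limma 3.58.1 (R 4.3.3; lmFit and eBayes, two-sided) on the log2 ratios, as 6 group means over 13 arrays, adjusted by Benjamini-Hochberg over all genes, threshold 0.05; the 3 lines were fitted separately with 1 value a line. The fit was tested on simulated data. Deviations of same-series arrays from their group means correlated at 0.16 to 0.24 (uninduced with days 2-3) and 0.12 to 0.28 (uninduced with days 4-5), each above 0.1. The fit behind the values given above took no account of this pairing. A fit with the culture series as a replicate block was run as an alternative for those 2 comparisons. Days 2-3 with days 4-5, which were not compared, gave 0.37, -0.12 and -0.09 within series, and arrays of different series -0.40 to 0.45 over all windows, so the pairing is weak.

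All members were named, with IRF4, the 3 genes of each list with the smallest p at days 4-5 against uninduced and the 5 genes nearest to the members' mean profile. Members, lists and tests were chosen with earlier results of these data known. Alternatives were no centring, centring by class, looser and stricter filters, feature medians, single features, KMS12 alone, a replicate block and leaving out each array. Promoter windows came from RefSeq (GRCh38.p14), matched by symbol for 8 of 10 members. Python 3.11.15 with pandas 2.3.3 and matplotlib 3.10.9 made the tables and figures.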

Additional observations from a re-analysis of the deposited data

Results flagged for a closer look

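Features of the members that were measured on too few arrays to be tested also carried values, and those of 3 genes had every induced KMS12 array above every uninduced one, a criterion chosen after these values had been seen. The 9 untested CIITA features averaged 0.20 to 0.84 on the 7 induced arrays (lowest 0.195), against -1.74 to -0.48 on the 3 uninduced arrays. The single HLA-DOB feature was at -0.159, 0.875 and 1.01 on 3 induced arrays, against -0.679 and -0.638 on 2 uninduced arrays. The single untested HLA-DQA1 feature was at 0.263 to 1.26 on 4 induced arrays, against -0.824 to -0.115 on 3 uninduced arrays. Of the 7 members with such features measured in at least 2 arrays of each kind, these are the 3, and the others (CD74, HLA-DMB, HLA-DPB1 and HLA-DRA) overlapped. Across all 4004 genes and unnamed features outside the filter, 23.8% showed the same order and 0.674% the opposite one. The median of the 7970 features measured on 1 to 9 arrays was -0.04 to 0.58 on the induced KMS12 arrays, against -0.69 to -0.08 on the uninduced ones, so the sparse features as a whole had the order seen in CIITA. The part of this shift in the CIITA values was not tested beyond the class centring described for its tested features. In these sparse spots HLA-DOB was never measured in H929, SKMM1 or series 1332 before day 7.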

How the results depend on the processing

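Of 614 member values recomputed, 568 kept their sign and their side of the threshold, 37 changed sign without passing the test, 8 lost the call of CD74 or HLA-DQA1 at days 2-3 against 0, and HLA-DPA1 gained one there with the filter at all 13 arrays (0.36, adjusted p = 0.0448). HLA-DQA1 lost its call also with the looser filter (0.0804) and in KMS12 arrays alone (0.0561).

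Without centring, days 2-3 against uninduced gave 339 calls and a member median of 0.022, with HLA-DPA1 at -0.0800, HLA-DPB1 at -0.0645 and HLA-DQB1 at -0.00792. Days 4-5 against uninduced then gave a median of -0.19, HLA-DQA1 -0.0927 and HLA-DQB1 -0.132, and days 4-5 against 0 gave 0 calls and CD74 -0.0126. HLA-DQA1 in H929 was then -0.047, and H929 against KMS12 -0.027 for HLA-DRA and -0.0511 for HLA-DPB1. Class centring gave 14 calls for H929 against KMS12.

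The looser filter (7 of 13 arrays) gave 516 calls at days 2-3 against 0, 0 at days 4-5 against 0, 20 in H929 and 0 for H929 against KMS12, with HLA-DQB1 at -0.0712 (days 4-5 against uninduced), CIITA at 0.0697 (H929) and HLA-DRA and HLA-DPB1 at -0.0723 and -0.0326 (H929 against KMS12). The filter at all 13 arrays gave 170 calls at days 2-3 against uninduced, 591 and 22 at days 2-3 and 4-5 against 0, 383 in H929 and 60 for H929 against KMS12. HLA-DMB was then -0.021 uninduced and HLA-DPA1 -0.0263 at days 4-5 against 0. CD74 was -0.0579 at days 4-5 against 0, -0.17 in H929, -0.112 in H929 against KMS12 and -0.0552 in 3 lines, and HLA-DQA1 was -0.0462 in H929. Feature medians gave HLA-DPA1 -0.036 at days 4-5 against 0. Single features gave 10 calls at days 4-5 against 0, 347 in H929 and 6 for H929 against KMS12, and KMS12 arrays alone 0 calls at days 4-5 against 0.

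Leaving out 1 array at a time moved the calls to between 0 and 653 at days 2-3 against uninduced (653 without the series 2046 day 2 array; member median 0.13 to 0.39), 0 and 1 at days 4-5 against uninduced and uninduced against 0, 4 and 1098 at days 2-3 against 0 (17 without series 1332, 4 without series 1332b), 0 at days 4-5 against 0, 5 and 15 in H929, 0 and 4 for H929 against KMS12, and 0 and 737 in 3 lines (737 without KMS12). The members that changed sign ranged as follows: at days 4-5 against uninduced HLA-DQA1 -0.0767 to 0.205, HLA-DQB1 -0.108 to 0.222, HLA-DRA -0.38 to 0.0284 and HLA-DPB1 -0.213 to 0.004. Uninduced, HLA-DQB1 ranged over -0.0314 to 0.299 and HLA-DMB over -0.0135 to 0.208, and at days 4-5 against 0 CD74 over -0.15 to 0.19. In H929 HLA-DMB ranged over -0.69 to 0.29, and in H929 against KMS12 HLA-DMB over -0.968 to 0.0141, CD74 over -0.0241 to 0.311, HLA-DPB1 over -0.0915 to 0.108 and HLA-DRA over -0.0523 to 0.104. Apart from the constructed changes (fewer genes or arrays), the cause was not tested.

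With the culture series as a replicate block 0 genes were called in either comparison with uninduced and the member medians stayed 0.23 and -0.03; the block changed no call. Signal over background was not used here, so what brightness limits could not be given.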
